A study of Drosophila melanogaster with 2 samples.

Results

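The genes described here are those of juvenile hormone action and turnover in *Drosophila melanogaster*: the receptors Met and gce, the response gene Kr-h1, the synthetic enzyme gene jhamt, and Jhe, Jheh1, Jheh2 and Jheh3, which encode degrading enzymes. These 8 genes, of 13945 protein-coding genes on the 6 large chromosome arms, were chosen by name, and a region was assigned to a gene when its summit lay in the gene or within 5 kb to either side. The study mapped where Hr39, a nuclear receptor of the NR5 family, sits on chromatin, using ChIP-seq (sequencing of immunoprecipitated chromatin fragments) on whole white prepupae, males and females together. All animals came from the transgenic strain Hr39-RC-GFP, which makes Hr39 with GFP at its C terminus, and the labels' description gives an antibody against GFP, while their antibody field names Hr39. The labels give 1 group with 2 biological replicates, numbered 1 and 3, and no treatment. They do not say what drives the fusion or whether untagged Hr39 was also made, and the age is given as unknown beyond the stage. Precipitations from animals without the fusion were not analysed here, so signal that depends on Hr39 was not told apart from other signal. Whole animals mix all tissues, and peak lists carry no expression values by which a tissue could be checked.

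Juvenile hormone is a sesquiterpenoid made in the corpus allatum that holds insects in their larval programme. It binds the bHLH-PAS proteins Met and Gce, which are paralogs and work with the coactivator Tai, and the bound receptor switches on Kr-h1, a zinc finger repressor of metamorphosis. The methyltransferase Jhamt acts in hormone synthesis, and the esterase Jhe and the epoxide hydrolases Jheh remove the hormone. Metamorphosis opens when the titre of juvenile hormone is low and a pulse of ecdysone arrives. Hr39 and its relative Ftz-F1 bind the extended nuclear receptor half-site known as the NR5 element.

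Sequence around the summits of 6 of the 13 regions is shown first. The set holds the strongest region of each of the Met, gce and Kr-h1 windows in the optimal set, and the 2 strongest summits inside gce. It also holds the weaker second region of a pair in gce, chosen because it has a motif match, so the 6 include every match to CAAGGNC found near the 13 summits. Each run holds 75 bases to each side of the summit on the plus strand, read from the RefSeq copy of the dm6 genome. Capitals mark matches on either strand to CAAGGNC, a relaxed form of the NR5 core whose consensus has C or T in place of N.
Met window, intron of Ptp10D, X:11623017-11623167: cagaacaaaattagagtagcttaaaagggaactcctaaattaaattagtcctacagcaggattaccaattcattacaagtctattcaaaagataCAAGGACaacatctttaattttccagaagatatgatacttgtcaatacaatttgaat
gce intron, first of the pair, X:15298345-15298495: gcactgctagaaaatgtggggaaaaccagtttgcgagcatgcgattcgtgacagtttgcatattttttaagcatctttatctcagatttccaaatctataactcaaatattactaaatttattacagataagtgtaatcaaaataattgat
gce intron, second of the pair, X:15298544-15298694: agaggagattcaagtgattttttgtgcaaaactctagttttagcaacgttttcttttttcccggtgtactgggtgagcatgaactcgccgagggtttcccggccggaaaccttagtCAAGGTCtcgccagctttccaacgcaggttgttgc
gce intron, farther into the gene, X:15312227-15312377: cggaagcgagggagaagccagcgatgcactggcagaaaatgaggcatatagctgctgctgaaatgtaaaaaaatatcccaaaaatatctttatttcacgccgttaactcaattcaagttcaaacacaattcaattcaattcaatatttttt
gce window, intron of Top1, X:15323333-15323483: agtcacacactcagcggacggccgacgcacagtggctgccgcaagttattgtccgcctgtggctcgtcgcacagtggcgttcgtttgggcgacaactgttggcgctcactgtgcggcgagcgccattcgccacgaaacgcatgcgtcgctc
Kr-h1 intron, 2L:6086906-6087056: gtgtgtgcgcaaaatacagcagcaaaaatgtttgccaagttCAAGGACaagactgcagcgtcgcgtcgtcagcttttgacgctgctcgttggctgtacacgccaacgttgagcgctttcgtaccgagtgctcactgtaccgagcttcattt

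The match read CAAGGAC in the Met window, starting 19 bp after the summit, and CAAGGAC in the Kr-h1 intron, starting 34 bp before it. In gce it read CAAGGTC and started 41 bp after the summit of the second region of the pair. Of the 3 matches, this 1 has the C or T of the NR5 consensus, and the other two have A there. The base composition differed widely among the 6 summits. Within 50 bp, GC content was 31.7% at the Met window summit, 30.7% and 50.5% at the pair in gce, 35.6% farther into gce, 63.4% in the intron of Top1 and 53.5% in the intron of Kr-h1.

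The authors deposited 4 lists of regions on dm6. Each replicate had a list of candidates, which include background, with 29999 regions for replicate 1 and 29972 for replicate 3 on the 6 arms. The pooled list of 28752 candidates came from both replicates together. The optimal set of 7426 regions passed the IDR threshold of the authors, where IDR, the irreproducible discovery rate, asks whether ranks repeat between replicates. It was exactly the 7426 strongest candidates of the pooled list, so a region is in it by its pooled signal and not by its own ranks in both replicates. The signal of each region is the authors' own value, and regions were ranked by it within each list, with 1 for the highest. Signals were not scaled to depth, so ranks and not signals are compared between replicates. Without read counts in the lists, depth is unknown.

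Optimal regions lay in the windows of 6 of the 8 genes, against 53.3% of all protein-coding genes. The 6 genes were Met, gce, Kr-h1, Jheh1, Jheh2 and Jheh3, and the 2 without an optimal region were jhamt and Jhe. The windows of the Jheh genes overlap, so the 8 windows form 6 separate stretches, of which 4 held an optimal region. A promoter region, meaning an optimal summit within 1000 bp of a transcription start site (TSS) of the gene, was present at 3 of the 8 genes (37.5%), against 25.2% of all protein-coding genes. The 3 were gce, Jheh1 and Jheh3. With 2000 bp in place of 1000 bp, Kr-h1 joined them.

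In all, 13 optimal regions fell in these windows, with 1 at Met, 7 at gce, 3 at Kr-h1 and 2 in the Jheh cluster. Of the 13 summits, 6 lay in introns of gce or Kr-h1, 1 in an exon of gce that is part of its 5′ UTR, 2 in introns of the neighbours Ptp10D and Top1, and 4 between protein-coding genes. No summit was in a coding exon. The nearest protein-coding TSS belonged to one of the 8 genes for 9 of the 13 and to a neighbour for 4.

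**Figure D1:**
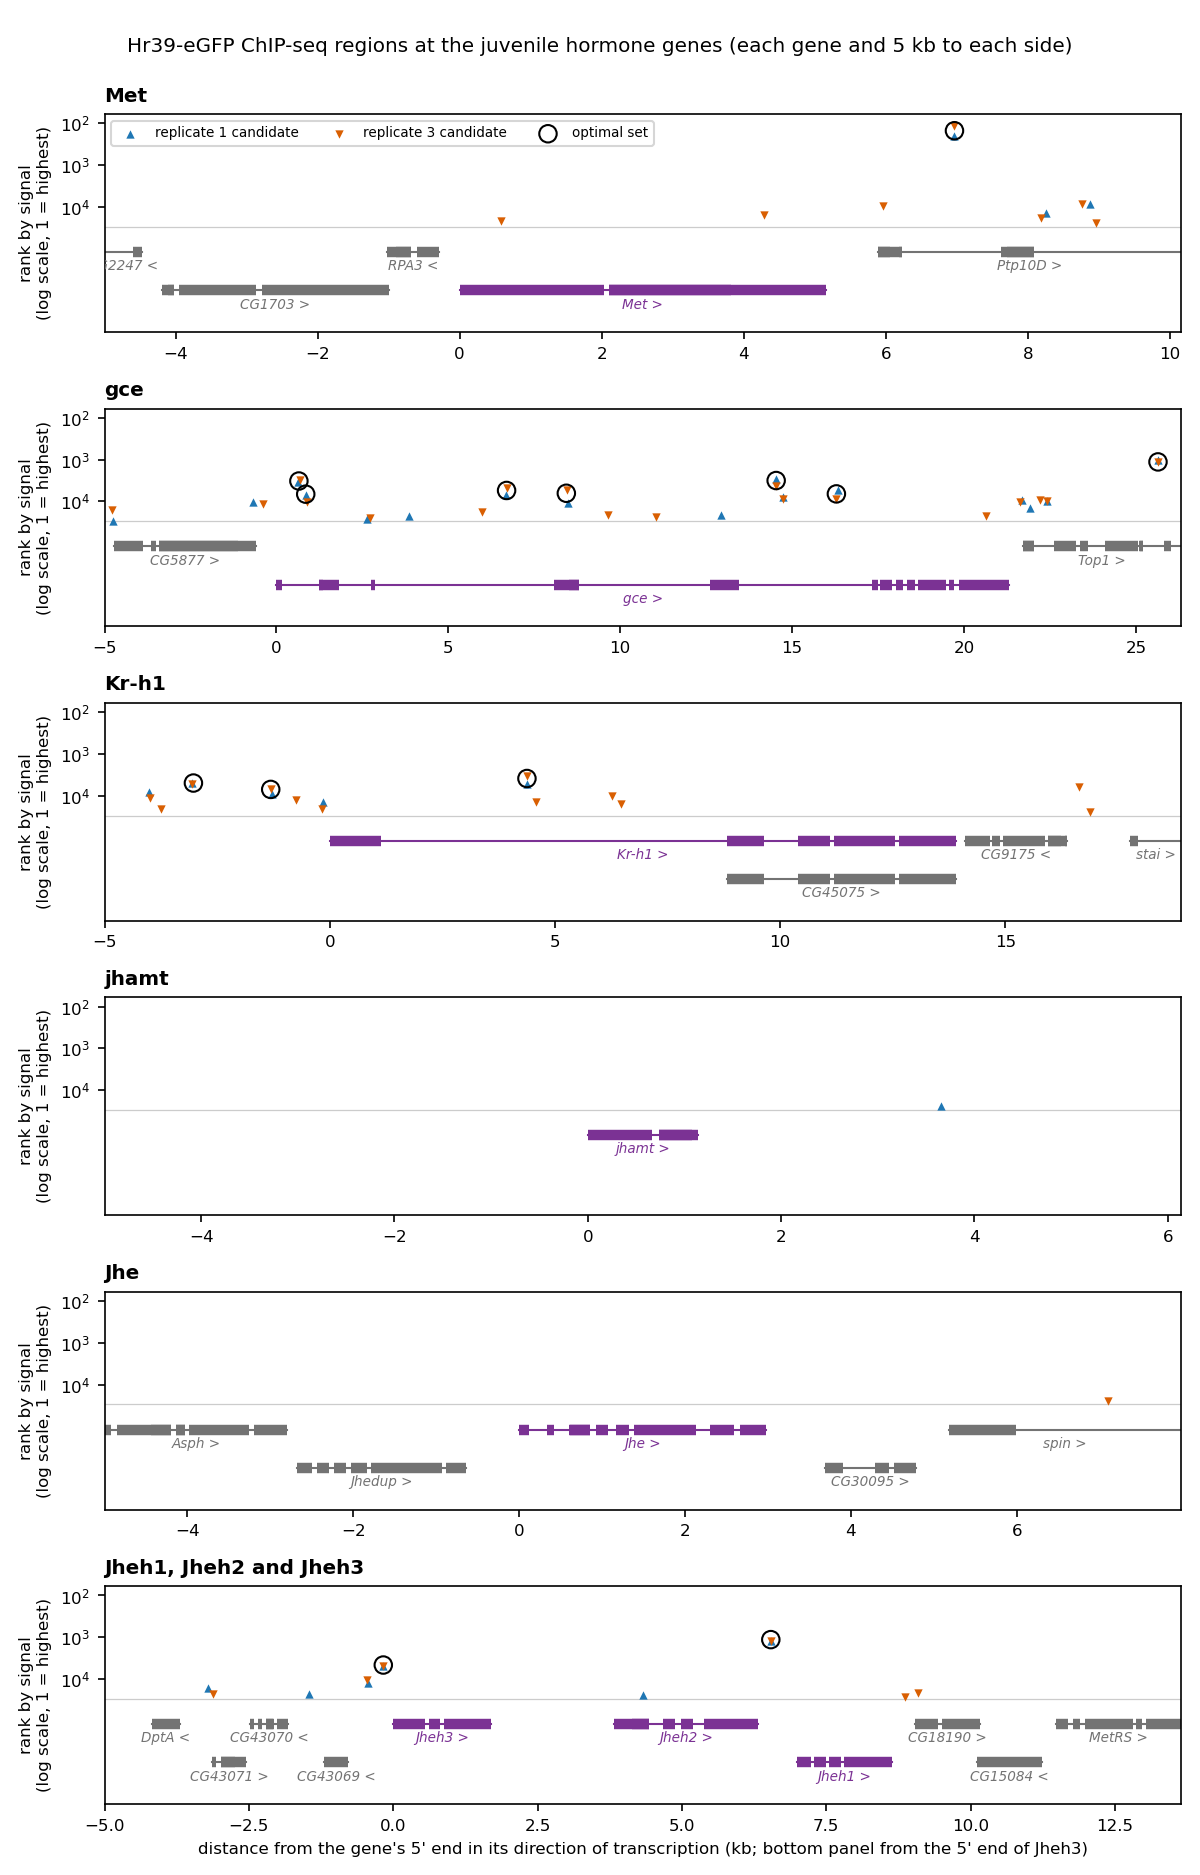
Rank by signal (vertical axis, log scale, 1 highest) of candidates of replicate 1 and replicate 3 and of optimal regions (circles) against distance from the 5′ end of the gene in kb. Members are purple and neighbours grey, with exons as thick bars. The highest point is the region 1812 bp beyond the 3′ end of Met, inside Ptp10D, gce has circles over most of its length, and the panels of jhamt and Jhe have no circle.

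The window of Met held the highest-ranking region of all 8 genes, and it lay in the neighbouring gene. Met spans 11616124 to 11621280 on X, and the region ran from 11622913 to 11623277. Its summit was 1812 bp beyond the 3′ end of Met, in an intron of Ptp10D, a receptor tyrosine phosphatase gene, and 1077 bp inside the Ptp10D TSS. The signal was 549 in replicate 1 (rank 202), 774 in replicate 3 (rank 115) and 1319 in the optimal set (rank 150, within the highest 2.02%). Both replicates placed the summit within 9 bp of the same position.

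Met itself held no optimal or pooled candidate. Replicate 1 had none in the gene. Replicate 3 had a candidate 583 bp after the Met TSS, at rank 21525, and another 4287 bp after it, at rank 15857, both far below the optimal range. The remaining candidates of the Met window lay in Ptp10D. The strongest of them in replicate 1 had its summit at 11624999 and rank 8464. The replicate 3 candidate matched to it, 85 bp away, ranked 24588. In replicate 3 the strongest was a different candidate, with its summit at 11624883 and rank 8503. That candidate had no summit of replicate 1 or of the pooled list within 100 bp. Its region, 11624688 to 11625077, still overlapped the replicate 1 region of rank 8464, 11624811 to 11625186. It also overlapped the pooled region 11624807 to 11625202.

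At gce, the paralog of Met, optimal regions were spread over the gene body. The gene spans 15297766 to 15319074 on X and has 3 annotated TSSs. Its window held 7 optimal regions in 31.3 kb, or 0.224 per kb, and 92.5% of protein-coding genes had fewer per kb. The candidate lists held 16 regions for replicate 1 and 18 for replicate 3.

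A pair of summits 199 bp apart lay in the intron between the first and second TSS of gce, in regions that overlap by 33 bp. The first of the pair, region 15298301 to 15298504, had a signal of 99.6 in replicate 1 (rank 3444) and 133 in replicate 3 (rank 3053), and ranked 3275 in the optimal set. It lay 589 bp before the second TSS of gce, and the TSS of the non-coding asRNA:CR44429 was nearer to it. The second, region 15298472 to 15298642, was weaker. Its signal was 47.3 in replicate 1 (rank 7067) and 40.5 in replicate 3 (rank 10151), and it ranked 6767 in the optimal set. In replicate 3 it was thus below the strongest 7426 candidates, and it counts among the optimal regions through the pooled signal.

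Further into gce, the summit at 15312302 had a signal of 117 in replicate 1 (rank 2862) and 101 in replicate 3 (rank 4204). It ranked 3191 in the optimal set, 11793 bp after the nearest TSS of gce and 5665 bp after that of the non-coding asRNA:CR44961. The order of this region and the first of the pair turned round between replicates, so the 2 were not told apart by rank. The other 3 optimal regions in the gene were weaker than these 2 in both replicates. The summit at 15304461 had a signal of 47.7 in replicate 1 (rank 7029) and 89.5 in replicate 3 (rank 4852). In the 5′ UTR exon, the summit at 15306199 had a signal of 27.6 in replicate 1 (rank 11027) and 82.4 in replicate 3 (rank 5313). The reverse held at 15314054, with a signal of 62.9 in replicate 1 (rank 5502) and 47.5 in replicate 3 (rank 8872). This summit lay 3913 bp after the TSS of asRNA:CR44961, the nearest of any gene.

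The strongest region of the gce window was outside the gene. Its summit lay 4334 bp beyond the 3′ end, in an intron of Top1, which encodes DNA topoisomerase 1, and 183 bp before an internal TSS of Top1. The region ran from 15323269 to 15323530 with a signal of 240 in replicate 1 (rank 1051) and 255 in replicate 3 (rank 1175), and ranked 1141 in the optimal set. Without it, the strongest region of gce ranked 3191.

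Kr-h1 had 3 optimal regions, 2 upstream and 1 in its long first intron, and none at its TSSs. The gene spans 6082603 to 6096498 on 2L, and its second TSS is shared with CG45075, a gene whose annotated span lies within that of Kr-h1. The intronic region, 6086783 to 6087178, lay 4378 bp after the first TSS, with a signal of 66.6 in replicate 1 (rank 5209) and 123 in replicate 3 (rank 3417). It ranked 3879 in the optimal set.

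The upstream regions of Kr-h1 were of similar or lower rank. The region 6079379 to 6079774 lay 3026 bp upstream, in an exon of the non-coding gene lncRNA:CR9162. It was 187 bp before the TSS of a further non-coding gene, lncRNA:CR44773. Its signal was 70.9 in replicate 1 (rank 4888) and 85.2 in replicate 3 (rank 5122). It was therefore the strongest region of the Kr-h1 window in replicate 1, and the intronic one was the strongest in replicate 3. The region 6081095 to 6081490 lay 1310 bp upstream, between genes, with a signal of 35.3 in replicate 1 (rank 9012) and 63.2 in replicate 3 (rank 6884). At rank 7086 and signal 104 in the optimal set, whose lowest signal was 98.5, it was near the threshold.

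Just outside the threshold, a pooled candidate 3988 bp upstream of Kr-h1 had a signal of 86.8 and rank 8234. At the Kr-h1 promoter, a pooled candidate 213 bp before the TSS ranked 12590, with 14581 in replicate 1 and 20418 in replicate 3. Replicate 3 had a candidate at 6099232, before the TSS of the convergent neighbour CG9175, at rank 6298, where neither replicate 1 nor the pooled list had a candidate within 100 bp. The candidate lists held 5 regions in this window for replicate 1 and 12 for replicate 3.

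jhamt had no optimal region and stood alone in its window, with no other annotated gene in it. The gene spans 16365903 to 16367039 on 2L. Replicate 1 had a single candidate, 2514 bp beyond the 3′ end, with a signal of 14.9 and rank 23656, and replicate 3 had none. The pooled list had 1 candidate, with a signal of 21.8 and rank 28335 of 28752, at a position that neither replicate list had within 100 bp.

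Jhe likewise had no optimal region. It spans 16119793 to 16122773 on 2R, downstream of its duplicate Jhedup. Replicate 1 had no candidate in the window, and replicate 3 had 1, in an intron of spin, a lysosomal transporter gene, with a signal of 15.0 and rank 24807. The pooled candidate there ranked 27883. Candidate lists hold background, and these ranks are near their ends, so no region at jhamt or Jhe was detectable at this depth, which does not show that Hr39 is absent.

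The Jheh genes lie side by side on 2R and are read in the same direction. Jheh1 spans 18853434 to 18855087, Jheh2 18855767 to 18858245 and Jheh3 18860375 to 18862078. Between Jheh1 and Jheh2, the region 18855399 to 18855723 had a signal of 219 in replicate 1 (rank 1203) and 247 in replicate 3 (rank 1245), and ranked 1142 in the optimal set. Its summit lay 450 bp before the Jheh1 TSS and 230 bp beyond the 3′ end of Jheh2, in an exon of the antisense gene asRNA:CR46485, which runs through the cluster. This region is counted in all 3 Jheh windows.

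The second region of the cluster, 18862184 to 18862310, lay 171 bp before the Jheh3 TSS. Its signal was 71.8 in replicate 1 (rank 4820) and 88.1 in replicate 3 (rank 4936), and it ranked 4644 in the optimal set. The replicates placed the 2 summits of the cluster within 11 and 2 bp of each other. Jheh2 had no optimal region at its own TSSs. The pooled candidate there, 66 bp after the TSS in the 5′ UTR, ranked 21582 and had no candidate of either replicate within 100 bp.

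All 13 regions had a candidate of each replicate within 100 bp of the summit, against 93.6% of all optimal regions. Replicate summits were 1 to 45 bp apart, with a median of 11 bp. Of the 13, 9 were among the strongest 7426 candidates of both replicates. The same share over all optimal regions was not counted, so the 9 cannot be called high or low. At least 1 candidate of each replicate was present in the windows of 6 of the 8 genes, against 71.2% of all protein-coding genes, and a pooled candidate in all 8, against 77.9%. For candidates of both replicates, the share among the 8 was thus close to that of all genes. Among candidates of any rank in these windows, 24 of 31 from replicate 1 (77.4%) had one from replicate 3 within 100 bp, against 47.5% over the whole list. For replicate 3 it was 24 of 44 (54.5%), against 47.5%. These shares were not matched for rank. Of the window candidates, 20 of the 31 and 32 of the 44 ranked beyond 7426, and those at the 13 optimal regions are included.

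**Figure D2:**
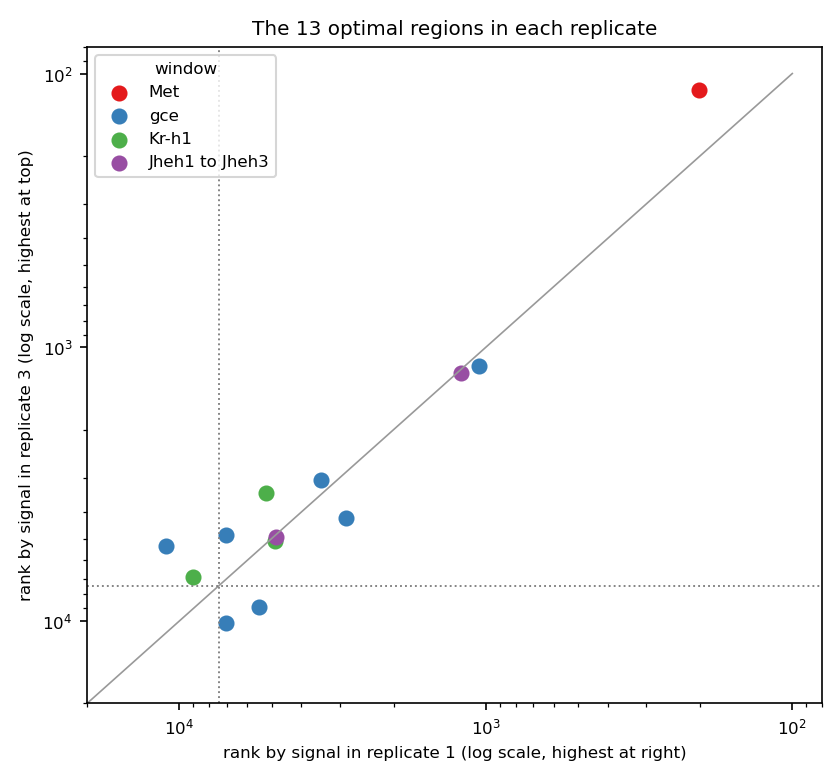
Rank by signal in replicate 1 (horizontal) against replicate 3 (vertical), log scales, for the optimal regions in the windows of the 8 genes. Dotted lines mark rank 7426 and the grey line equal ranks. Met (202 and 115) stands apart at the top right, and 4 points lie beyond rank 7426 in 1 replicate.

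Ordered by the strongest region, the windows ran from Met (rank 150 in the optimal set) through gce (1141), the Jheh cluster (1142) and Kr-h1 (3879) to jhamt and Jhe, which had none. Met was first in both replicates, far ahead of gce. The windows of gce and the Jheh cluster, at ranks 1051 and 1203 in replicate 1 and 1175 and 1245 in replicate 3, were 1 rank apart in the optimal set, with gce ahead in both replicates, and no test of that order was made. Kr-h1 followed in both, at 4888 and 3417.

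Window length differs between genes, so counts were also divided by it. The 8 windows together span 113 kb and held 0.115 optimal regions per kb. Of the 13 regions behind this value, 7 were in the gce window. Over the whole length of the 6 arms there were 0.0555 optimal regions per kb. The values per gene are a different measure, since 46.7% of protein-coding genes had 0 optimal regions. Their median over all protein-coding genes was 0.0462 per kb, for a median window of 12.2 kb. Jheh3 had 0.171 per kb, Jheh2 0.160, Kr-h1 0.126, Jheh1 0.0858 and Met 0.0660. By this measure gce was the densest of the 8, and Met, with the highest-ranking region, was near the middle, since 54.0% of genes had fewer per kb. Regions shared by the Jheh windows enter more than once in these per-gene values, but only once in the 0.115 per kb.

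**Figure D3:**
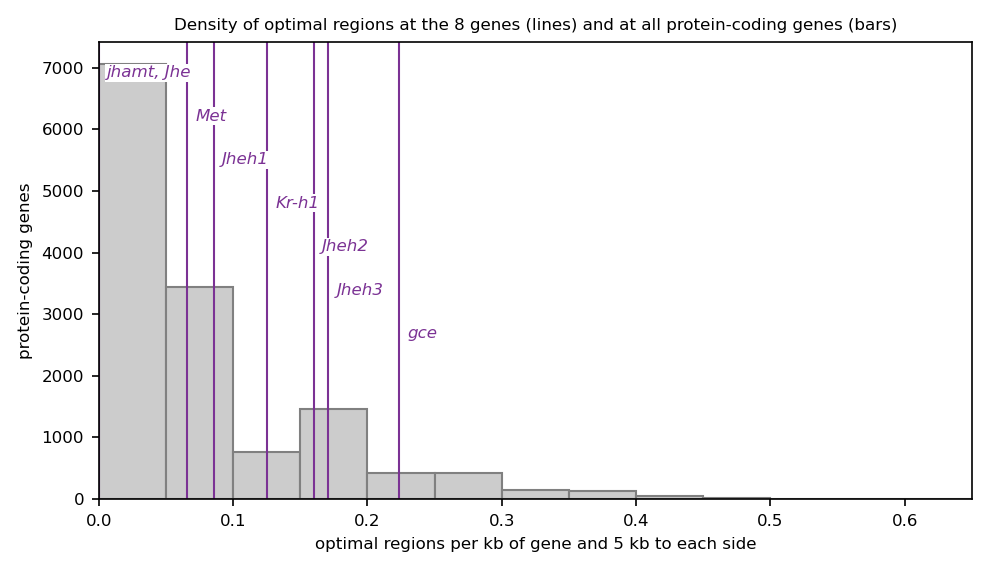
Number of protein-coding genes (bars) by optimal regions per kb of gene and 5 kb to each side, with the 8 genes as labelled lines. jhamt and Jhe are at 0 and gce, at 0.224 per kb, lies farthest right of the 8.

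Many of these assignments depended on the flank. Met, Jheh1, Jheh2 and Jheh3 had 0 optimal summits inside the gene, gce had 6 and Kr-h1 had 1. With 2 kb in place of 5 kb, gce, Kr-h1, Jheh2 and Jheh3 each had 1 fewer. The farthest optimal summits inside were 4838 bp from Jheh3, a region that lies beside Jheh1, 4334 bp from gce, 4004 bp from Jheh2, the region at Jheh3, and 3026 bp from Kr-h1. The nearest outside were 6657 bp from Jhe, at rank 1021, and 7162 bp from Jheh1, the region at Jheh3. For the other members the next optimal summit was at least 13192 bp away. Among these, one at rank 91 lay 14625 bp from jhamt and one at rank 23 lay 16516 bp from Kr-h1.

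Motif matches within 50 bp of the 13 summits were few. CAAGGNC was present at 3 of the 13, 1 each in the windows of Met, gce and Kr-h1, and at 2.06% of all 7426 optimal summits. All motifs were searched on both strands. The E-box, CACGTG, was present at 0 of the 13 and at 0.633% of all optimal summits. The element found in binding sites of Met and Gce, CACGCG, was present at 0 of the 13 and at 0.956% of all. A match in the region 3026 bp upstream of Kr-h1 started 47 bp after the summit and ran past the edge of the window. Within 100 bp, CACGCG was present at 1 of the 13 and at 2.37% of all. The DRE of promoter factors, TATCGATA, was present at 0 of the 13 and at 1.23% of all. A match describes the letters in the window and is not a bound site. Median GC content within 50 bp of the 13 summits was 35.6%, with a range of 21.8% to 64.4%, and over all optimal summits the median was 32.7%.

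Other genes of the pathway were taken from a list of 19, grouped by role. Optimal regions lay in the windows of 10 of the 19 (52.6%), close to the 53.3% of all protein-coding genes, and at promoters of 3 (15.8%), against 25.2%. The strongest region in the window had the TSS of the listed gene as its nearest protein-coding TSS for 3 of the 10, namely tai, Hsp83 and Hmgs.

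Among 5 genes of receptor partners, 4 had an optimal region. tai, the coactivator gene, had 8 over its 83.4 kb, the strongest in an intron at rank 449 (468 in replicate 1 and 416 in replicate 3). Hsp83, which encodes the chaperone Hsp90, had 4, and the strongest ranked 583 in an intron (607 in replicate 1 and 587 in replicate 3). For Nup358, a nuclear pore gene, the strongest ranked 127 (118 in replicate 1 and 130 in replicate 3), 93 bp before the TSS of its neighbour CG11857. The strongest at Chd64 ranked 2990 and lay in an intron of its neighbour Ack. Fkbp39 had no candidate in any list.

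In the group of 5 synthesis genes, Hmgs (hydroxymethylglutaryl-CoA synthase) had 2 optimal regions, the stronger at rank 5187. The region in the window of Mvk (mevalonate kinase) ranked 3205 and lay 102 bp before the TSS of spt4. Fpps (farnesyl pyrophosphate synthase), Aldh-III and Cyp6g2 had none. Jhedup had no candidate in any list. Of the hormone-inducible genes, JhI-21 had none and JhI-26 had 1 in its window, at rank 2702 (2006 in replicate 1 and 6053 in replicate 3), 76 bp before the TSS of Atg9.

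Of 6 genes of allatostatins, neuropeptides named for inhibiting the corpus allatum, and their receptors, 3 had an optimal region in the window. The strongest ranked 222 for AstA, 1563 for AstC, which had 2, and 7120 for AstA-R1, and the nearest protein-coding TSS was that of CG13631, CG14915 and Ilp7. AstA-R2, AstC-R1 and AstC-R2 had none.

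**Figure D4:**
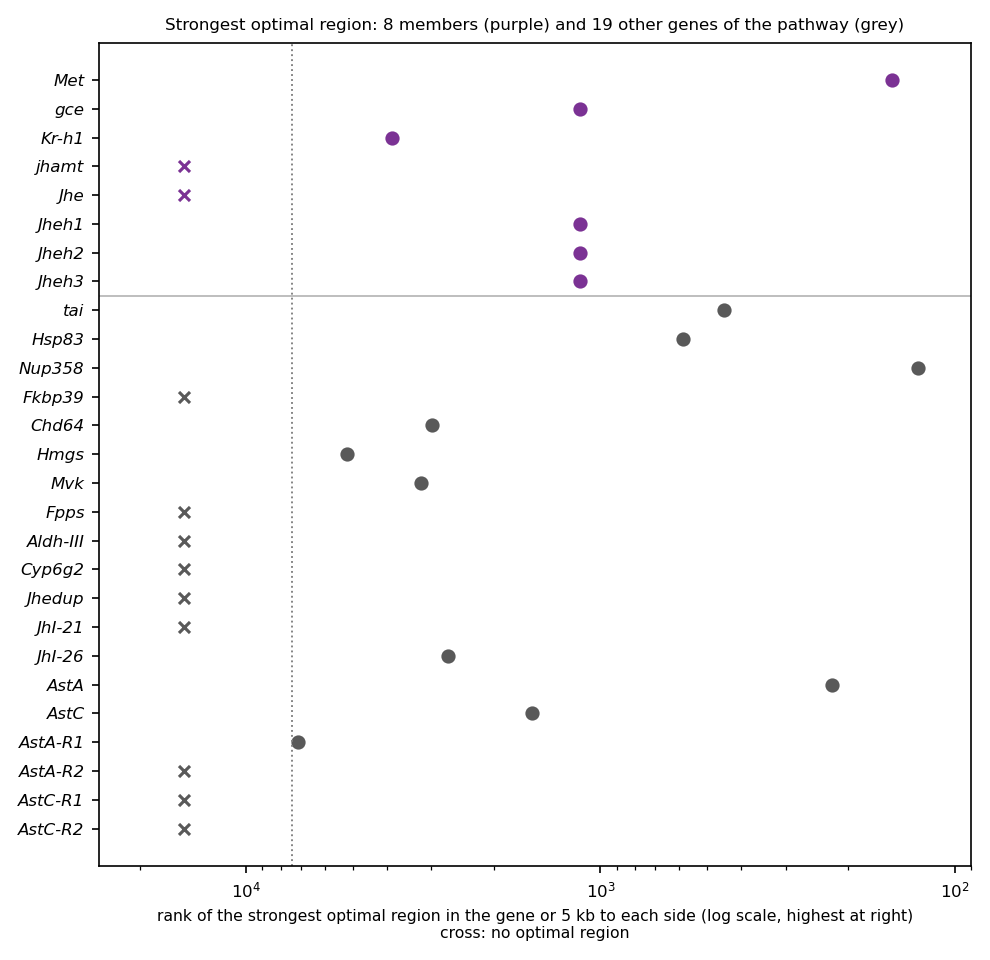
Rank in the optimal set of the strongest region in each gene's window (log scale, highest at right) for the 8 members (purple) and 19 other genes of the pathway (grey). Crosses mark genes without an optimal region, and the dotted line is rank 7426. Nup358 (127), Met (150) and AstA (222) are farthest right, and each of these 3 regions has a neighbouring gene's TSS as its nearest.

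Genes with the most similar ranks in both replicates were found by the summed difference of log10 rank of the strongest candidate in the window, over the 2 replicates and at least 9922 genes. For Met they were CG14314 and CG7168, which share a region at ranks 207 and 123 in replicates 1 and 3. For gce they were CG11170 and CG11275 (1075 and 1168), and for Kr-h1 CG11456 and CG13255 (4870 and 3523), again pairs that share 1 region each.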

How the data were processed

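Peak lists of 2 biological replicates, in 1 group, were analysed. The authors deposited, on dm6, candidate lists for each replicate and for both pooled, and an optimal set from an IDR threshold. Per the deposited notes, candidates came from the alignments and 1 control alignment, which was not analysed here. Neither a peak caller nor an aligner is named in the labels or headers. Signal values, which the authors computed, ranked regions within a list. Deposited −log10 q values (2.88 to 3.62 in the optimal set) were not used. Most regions have a fixed width with the summit at the midpoint (396 bp for 85.7% of the pooled list). Lists on dm3 were not used.

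Regions on 6 arms were kept, which left out 18 optimal regions. Genes came from Ensembl release 115 (BDGP6), without transposable elements, and sequence from the RefSeq copy of the same assembly. Of all regions used, 0 ran past the end of an arm there. Motifs were searched within 50 bp of summits. Counts over the 8 genes are descriptions, set beside the same counts over all protein-coding genes, and no test was made, since 1 group allows none over samples. Members, lists and alternatives were chosen with earlier results of these data known. Named genes were the members, the genes with a TSS nearest to a member region, the fixed pathway list and the 2 genes nearest in rank to Met, gce and Kr-h1. Other genes in the windows (spin, CG45075, CG9175, lncRNA:CR9162, asRNA:CR46485) and neighbours of pathway genes were named after values were seen. One gene of the pathway list as first written is not reported here, and the counts leave it out. Counting was checked on simulated data. Python 3.11.15, numpy 2.4.6, pandas 2.3.3 and matplotlib 3.10.9 were used.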

Additional observations from a re-analysis of the deposited data

How the results depend on the processing

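Without a flank, 2 genes (gce and Kr-h1) held 7 optimal regions, in place of 6 genes and 13 regions. With flanks of 2 kb and 10 kb the counts were 6 and 7 genes and 11 and 16 regions, and with 10 kb Jhe had 3. Restricting the optimal set to signals above its median left 5 regions at 5 genes, without Kr-h1. The strongest 7426 regions of a single replicate gave 6 genes each and 11 to 12 regions, and the median rank of the strongest regions was 1127 to 1210, against 1141.5 in the optimal set. Over whole regions in place of 50 bp to each side of the summit, motif matches (regions with each motif, summed over 4 motifs) numbered 6 in place of 3. CAAGGNC stayed at 3 of the 13, against 6.18% of all optimal regions, up from 2.06%. CACGCG went from 0 to 2, against 5.35% of all, up from 0.956%. TATCGATA went from 0 to 1, against 3.72% of all, up from 1.23%. Other alternatives, on overlap, summit distance and promoter distance, moved these counts by less than 1.5 times. No paired analysis was possible because the samples form 1 group. Depth is unknown, with 2 replicates and no precipitation from animals without the fusion, so weak and missing regions are not told apart.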

Other observations

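The replicates listed different numbers of candidates at some genes of the pathway, although their lists were of nearly equal length. tai had 8 candidates in replicate 1 and 45 in replicate 3, with 26 in the pooled list. In the opposite direction, AstA-R2 had 9 in replicate 1 and 2 in replicate 3, and AstC-R1 had 6 in replicate 1 and 1 in replicate 3. AstA-R1, the longest gene of the list, had 15 in each. The part of depth, which is unknown, was not tested.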
